A study of Arabidopsis thaliana with 12 samples.

Results

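The responses of 2 Arabidopsis thaliana mutants of histone H3 lysine 4 were compared gene by gene, each mutant against its own control. The quantity described is the difference of effects, (K4A minus HTR5) minus (sdg2 minus Col), on the log2(TPM + 1) scale, where TPM is the transcript level of a gene, scaled by the authors to sum to 1000000 in each library. Genes entered when their TPM was at least 1 in at least 3 of the 12 libraries, which left 20881 of the 27655 genes in the table. The K4A libraries are labelled h3.3ko;HTR5 K4A, a knockout of histone H3.3 that carries the H3.3 gene HTR5 with lysine 4 changed to alanine. The HTR5 libraries are labelled h3.3ko;HTR5, the same knockout with HTR5 unchanged, so the knockout is shared by mutant and control. The other mutant is labelled sdg2, for SDG2, a histone methyltransferase of lysine 4, and its control is the wild type, Col. Each group has 3 libraries of seedlings aged 3 weeks, kept at 22 °C in days of 16 h light and 8 h dark. The labels used here give no allele of sdg2, no promoter or line number of the HTR5 transgenes, no hour of harvest and no count of plants per library. It is not said whether the libraries of a group came from separate plants, so p-values measure only the spread between these libraries.

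Below, the K4A effect is K4A against HTR5 and the sdg2-labelled effect is the libraries labelled sdg2 against Col, both as log2 fold changes. A positive difference of effects means that the K4A effect was the more positive, which can be a larger rise or a smaller fall. A gene was called when the limma test, fitted on all tested genes, gave an adjusted p under 0.05. The SDG2 transcript itself went against a simple reading of its label: it averaged 27.5 ± 1.95 TPM in K4A, 25.3 ± 4.83 in HTR5, 161 ± 19.4 in sdg2-labelled and 21.8 ± 3.1 TPM in Col libraries (SD, n = 3 each). A gene total does not show which part of the transcript was sequenced, and these libraries are called sdg2-labelled throughout. Of the 3 genes annotated as histone 3.3, AT5G10980 averaged 4.8 TPM in K4A, 6.49 TPM in HTR5, 192 TPM in sdg2-labelled and 243 TPM in Col libraries, which sets the knockout background apart from the other groups. As deposited, the K4A effect was called higher in 1 of the 3 and lower in 1, and 1 difference of effects was called, at -0.90. The higher call was lost under the other scalings described below.

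Methyl groups on lysine 4 of histone H3 mark the start of active genes, and in plants they are written by SDG2 and the ATX family of methyltransferases. H3.3 is the H3 variant laid down in transcribed genes outside DNA replication, so K4A removes the acceptor lysine from that variant, while loss of a methyltransferase would leave the lysine in place. The pathways described here are large responses of Arabidopsis seedlings. Salicylic acid and jasmonate are defence hormones that often restrain each other, and the circadian clock is a loop of morning and evening genes that repress one another and set the daily timing of starch, light and cold responses.

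Sequencing depth and composition divided the mutants from the controls. The K4A and sdg2-labelled libraries held 20725060 to 30364749 reads and the HTR5 and Col libraries 13718753 to 14536028. Genes encoded in the organelles took 0.0608 to 0.0827% of TPM in the mutants and 0.183 to 0.471% in the controls. A batch with this split and the mutant state cannot be told apart in either effect. The difference of effects can also be written as (K4A minus sdg2) minus (HTR5 minus Col), and each of those terms lies within 1 of the 2 sets. An offset shared by both mutants on the log2 scale therefore cancels in it by construction. HTR5 replicate 2 stood apart from the other HTR5 libraries, with a summed TPM of the light-harvesting antenna genes of 79916 against 119220 and 115441, and results that rest on it are given without it. Over all tested genes the median K4A effect was 0.14, the median sdg2-labelled effect was 0.31 and the median difference was -0.16. Median-of-ratios scaling moved that median to 0.01, quantile normalization to -0.04 and limma-voom on recovered reads to 0.00, so list medians are also given less the median of all tested genes.

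The effects differed in 8499 genes, 40.7% of those tested, with 2943 positive (14.1%) and 5556 negative (26.6%). That split depended on the scaling: 34.6% of called differences were positive as deposited, 55.4% with median-of-ratios scaling, 48% with quantile normalization and 53.5% with limma-voom. Without HTR5 replicate 2 there were 8960 calls, 40% of them positive. The effects differed by at least 2-fold in 2312 genes (11.1%), 1104 of them positive (5.29%) and 1208 negative (5.79%). By comparison, the K4A effect was called in 14319 genes (68.6%: 42.5% higher and 26.1% lower) and the sdg2-labelled effect in 15278 (73.2%: 52.4% higher and 20.7% lower).

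Most called differences were in genes whose effects had the same direction, or with 1 effect called, and fewer were between opposite effects. Among the 8499 genes, 3871 (45.5%) had both effects called in the same direction, and the sdg2-labelled effect was the larger in 2416 of these (62.4%, and 55.7 to 56.2% under the 3 other scalings). Of the 868 such genes with a difference of at least 2-fold, it was the larger in 370 (42.6%, and 40.8 to 45.4%), so there the K4A effect was more often the larger. In 1584 genes only the K4A effect was called and in 2075 only the sdg2-labelled effect, but that order turned to 1800 and 1606 with median-of-ratios scaling, 1800 and 1692 with quantile normalization and 1827 and 1615 with limma-voom. The effects were called in opposite directions in 903 genes: 297 were higher in K4A and lower in sdg2-labelled libraries, and 606 were lower in K4A and higher in sdg2-labelled libraries. This imbalance depended on the scaling, since the counts were 463 and 392 with median-of-ratios scaling, 394 and 449 with quantile normalization and 468 and 436 with limma-voom. Among the 2312 genes with at least a 2-fold difference the opposite cases were 548 (23.7%), of which 172 were higher in K4A and 376 were lower in K4A, but 267 and 221, 245 and 235, and 293 and 263 under the same 3 settings. The controls also bear on the difference. HTR5 against Col was called in 1189 of the 8499 genes (14%), and in 1152 (13.6%) the control term, HTR5 minus Col, was larger in size than the mutant term, K4A minus sdg2. Over all tested genes HTR5 against Col was called in 9.28%.

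**Figure D1:**
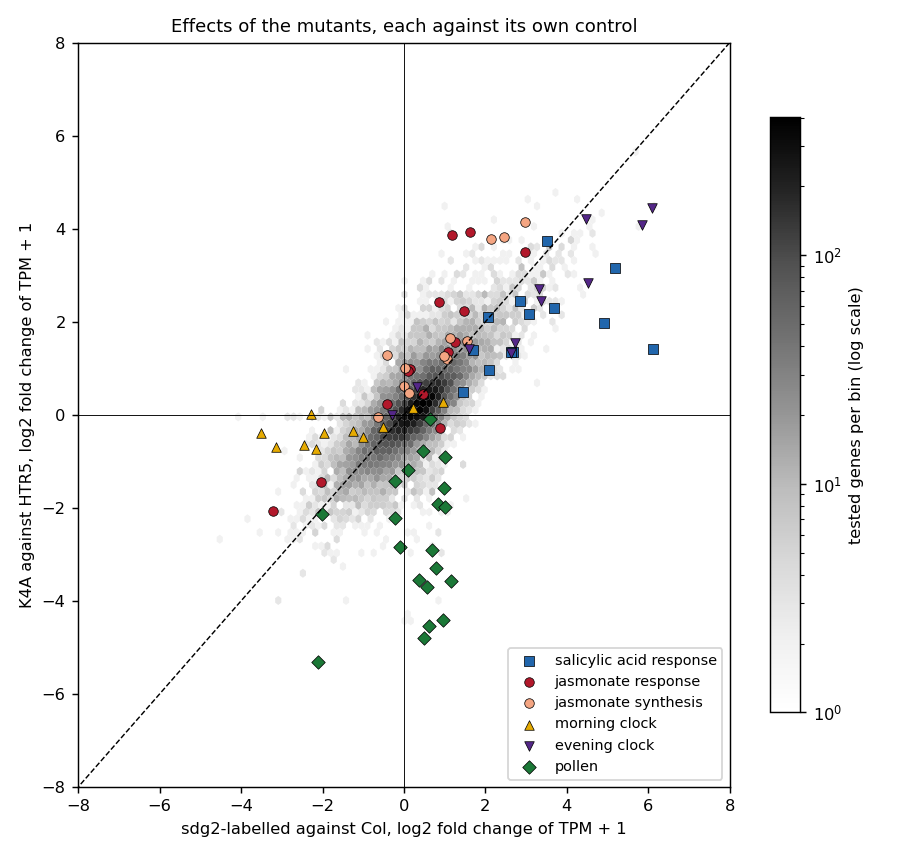
Log2 fold changes of TPM + 1 for K4A against HTR5 (vertical axis) and for the sdg2-labelled libraries against Col (horizontal axis); grey shows the number of tested genes per bin on a log scale, coloured symbols are genes of 6 lists, the dashed line marks equal effects, and 1 gene lies outside the axes. Pollen genes lie far below the line, salicylic acid response and evening clock genes mostly below it, and jasmonate and morning clock genes mostly above it.

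The pathways were followed with 42 gene lists holding 527 genes, of which 506 were tested. The lists are described by counts and medians, since they were chosen with earlier results of these data known. List counts below are to be read beside the shares of all tested genes. For the difference these were 14.1% positive and 26.6% negative. For the effects they were 42.5% higher and 26.1% lower in K4A, and 52.4% higher and 20.7% lower in sdg2-labelled libraries. The lowest median differences were those of the pollen list (-2.88, or -2.71 less the median of all genes, and -4.62 with limma-voom), the salicylic acid response (-1.14, -0.97), the evening clock (-0.91, -0.74) and starch (-0.77, -0.61). The highest were those of the morning clock (1.42, 1.58), flavonoid and anthocyanin synthesis (1.01, 1.18), sugar starvation (0.91, 1.07), nitrate (0.90, 1.06) and the jasmonate response (0.71, 0.88). In 34 of the 42 lists the median effects of the mutants had the same sign. Where a direction of a list is counted as 0 below, the limma count at an unadjusted p under 0.05 was also 0 unless said, and so was that of limma-voom. Of 24 genes named below with a difference that was not called, 11 were called under at least 1 of the 3 other scalings and 6 under all of them (ACX1, JAR1, JAZ2, LNK1, HSP90.1 and PAD4).

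**Figure D2:**
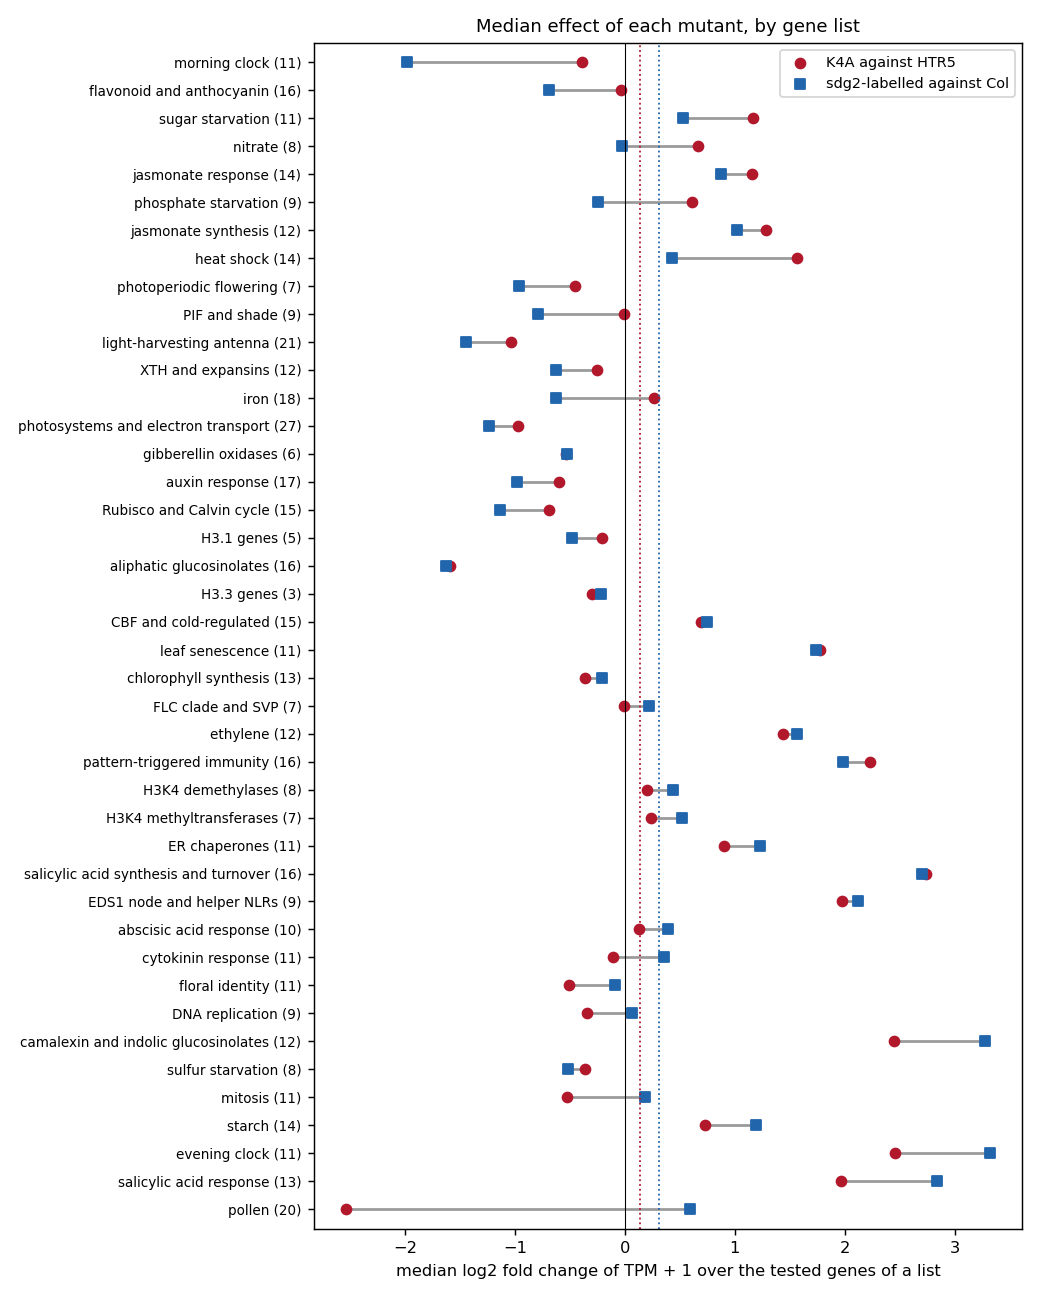
Median log2 fold change of TPM + 1 over the tested genes of each list (number in brackets), for K4A against HTR5 (circles) and the sdg2-labelled libraries against Col (squares), ordered by the median of the per-gene differences; dotted lines are the medians of all tested genes, 0.14 and 0.31. The morning clock is at the top, with circles to the right of squares, and the pollen list is at the bottom, with its circle at -2.53 and its square at 0.59.

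Salicylic acid response genes rose in both mutants and by more in the sdg2-labelled libraries. All 13 listed genes were called higher in both effects, against 42.5% of all tested genes in K4A and 52.4% in sdg2-labelled libraries (median K4A effect 1.97, median sdg2-labelled effect 2.84). The difference was negative and called in 10 of 13 and positive in 0, against 26.6% negative and 14.1% positive among all tested genes. The largest was PR1, the classical marker of salicylic acid signalling (AT2G14610, chromosome 2, 6241640 to 6242541, reverse strand, exons over 100% of the span; here and below in TAIR10.1). PR1 had 110, 111 and 113 TPM in K4A libraries and 37.3, 37 and 50.5 TPM in HTR5 libraries, and 2760, 2818 and 2606 TPM in sdg2-labelled libraries and 47.2, 30.9 and 38.1 TPM in Col libraries. The libraries labelled sdg2 were far above all others, K4A was above both controls, and HTR5 and Col overlapped. The difference of effects of PR1 was -4.71 ± 0.18 (SE, 95% interval -5.09 to -4.33, adjusted p = 8.45e-11), between a K4A effect of 1.41 and an sdg2-labelled effect of 6.12. PR2, a glucanase, averaged 772 TPM in K4A and 86.4 TPM in HTR5, and 2826 TPM in sdg2-labelled and 77.1 TPM in Col libraries, with a difference of -2.03. PR5, a thaumatin-like protein, averaged 155 TPM in K4A and 39.4 TPM in HTR5, and 1383 TPM in sdg2-labelled and 44.8 TPM in Col libraries, with a difference of -2.95.

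The regulators of the response differed less than these end products. NPR1, the salicylic acid receptor and coactivator, had a difference of -0.32 (adjusted p = 0.0232), which was not called without K4A replicate 3, sdg2 replicate 3, or Col replicate 2 or 3 (-0.32 to -0.28) or under the 3 other scalings (-0.23 to -0.14). The receptor NPR4, which represses the response, had -0.98, while NPR3 had 0.06 and was not called. The NPR1-binding proteins NIMIN1 and NIMIN2 had -1.13 and -1.33. Of the WRKY transcription factors in the list, WRKY54 had -1.39, WRKY70 -1.27 and WRKY62 -0.90, the last not called with limma-voom. WRKY38 (-0.39) and WRKY18 (0.23) were not called.

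Genes that make and modify salicylic acid divided by step. The list as a whole had near-equal median effects (2.74 for K4A and 2.70 for sdg2-labelled), with 4 positive and 8 negative differences called among 16. ICS1, the isochorismate synthase, had a difference of -0.99, and its activators SARD1 and CBP60G had -0.82 and -0.46 (the last -0.28 with limma-voom). Downstream of ICS1, the exporter EDS5 had 0.01 and was not called, PBS3, which couples isochorismate to glutamate, had -0.40, and EPS1, which releases salicylic acid from that conjugate, had 0.50. PBS3 was not called without K4A replicate 3, sdg2 replicate 2, or Col replicate 2 or 3 (-0.37 to -0.36), nor was EPS1 without K4A replicate 2 or 3 or Col replicate 3 (0.44 to 0.47). With median-of-ratios scaling and limma-voom PBS3 was not called either. The hydroxylases that inactivate salicylic acid, DMR6 and DLO1, had -0.98 and -2.61, and DLO1 averaged 124 TPM in K4A and 5.71 TPM in HTR5, and 800 TPM in sdg2-labelled and 6.08 TPM in Col libraries. In the branch to N-hydroxypipecolic acid, a mobile signal of systemic immunity, ALD1 had -1.69 and FMO1 -2.65. FMO1 (AT1G19250, chromosome 1, 6650476 to 6653195, reverse strand, exons over 70.4% of the span) had 19.9, 20.1 and 20.9 TPM in K4A libraries and 0.276, 0.744 and 0.459 TPM in HTR5 libraries, and 144, 140 and 145 TPM in sdg2-labelled libraries and 0.979, 0.289 and 0.582 TPM in Col libraries. Here the controls were near or under 1 TPM, K4A was at an intermediate level and the sdg2-labelled libraries were highest, and the difference was -2.65 ± 0.21 (SE, 95% interval -3.09 to -2.21, adjusted p = 1.29e-07).

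The sign was the other way for genes that convert salicylic acid to and from its ester forms. UGT74F2, a glucosyltransferase that makes the glucose ester of salicylic acid (AT2G43820, chromosome 2, 18152078 to 18153908, forward strand, exons over 95.2% of the span), had 242, 234 and 221 TPM in K4A libraries and 23.9, 32.9 and 25 TPM in HTR5 libraries, and 61.9, 62.8 and 60.9 TPM in sdg2-labelled libraries and 23.4, 24 and 23.4 TPM in Col libraries. K4A was above the sdg2-labelled libraries, which were above both controls, and the difference of effects was 1.70 ± 0.13 (SE, 95% interval 1.43 to 1.98, adjusted p = 1.01e-07). MES9, an esterase that releases salicylic acid from its methyl ester, averaged 79.5 TPM in K4A and 8.67 TPM in HTR5, and 21.3 TPM in sdg2-labelled and 9.23 TPM in Col libraries, with a difference of 1.95. BSMT1, which makes that methyl ester, had 0.81 at 2.19 TPM in K4A, 1.4 in HTR5, 1.33 in sdg2-labelled and 2.01 TPM in Col libraries. Neither of its effects was called as deposited, but the sdg2-labelled effect (-0.37) was lower and called under the 3 other scalings (-0.93 to -0.57). Its difference was not called in 9 of the 12 fits without 1 library (0.64 to 0.86). The glucosyltransferases UGT74F1 (-0.15) and UGT76B1 (0.03) were not called.

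Jasmonate genes had more positive effects in K4A than in the sdg2-labelled libraries, where they were mixed. In the synthesis list the difference was positive and called in 9 of 12 genes and negative in 0 (median K4A effect 1.28, median sdg2-labelled effect 1.02). The sdg2-labelled effect was called higher in 7 genes and lower in 2, but lower in 3 to 4 under the 3 other scalings (medians 0.67 to 0.70). AOC4 was then called lower under all 3 (-0.22 to -0.16). LOX2 was lower with median-of-ratios scaling and limma-voom (-0.34). Of the first steps, the lipoxygenases LOX3 and LOX4 had differences of 1.66 and 1.16, and LOX2 had 0.62. LOX3 (AT1G17420, chromosome 1, 5977323 to 5981521, forward strand, exons over 73.5% of the span) had 225, 218 and 198 TPM in K4A libraries and 14, 14.5 and 15.3 TPM in HTR5 libraries, and 51.5, 53.9 and 52.5 TPM in sdg2-labelled libraries and 11.6, 12.8 and 9.72 TPM in Col libraries. K4A was highest, the sdg2-labelled libraries were second, and both were above the controls, with a difference of 1.66 ± 0.12 (SE, 95% interval 1.39 to 1.92, adjusted p = 7.76e-08). Among the allene oxide cyclases, AOC1 had 1.72, AOC3 1.36 and AOC4 0.33 (0.51 with limma-voom), while AOC2 (0.05) was not called; these copies are alike, and the authors' counting could have split reads between them. AOC1 had the largest difference of the list: it rose in K4A (1.29) and fell in sdg2-labelled libraries (-0.43). AOS, the allene oxide synthase before them, had a K4A effect of -0.05, not called (-0.24 to -0.21 and called under the 3 other scalings), and fell in sdg2-labelled libraries (-0.63). OPR3, the reductase of the next step, rose in both (1.65 and 1.12; difference 0.53). ACX1, an oxidase of the side chain, and JAR1, which couples jasmonate to isoleucine, had 0.16 and 0.28 and were not called as deposited.

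Of 14 tested jasmonate response genes, 11 had a positive and 1 a negative difference called. The sdg2-labelled effect was called higher in 9 and lower in 3, but higher in 8 to 9 and lower in 5 under the 3 other scalings. JAZ3 and JAZ6 were then called lower in sdg2-labelled libraries (-0.26 to -0.19). JAZ proteins repress jasmonate signalling and are induced by it, and 8 of the 10 tested JAZ genes were among the positive ones. JAZ8 and JAZ7 led, at 2.69 and 2.32, before JAZ10 (1.57), JAZ6 (0.85), JAZ3 (0.84), JAZ5 (0.76), JAZ9 (0.66) and JAZ1 (0.52, or 0.46 and not called without sdg2 replicate 1). JAZ2 (0.26, called under the 3 other scalings) and JAZ12 (-0.02) were not called. JAZ8 (AT1G30135, chromosome 1, 10596352 to 10597341, forward strand, exons over 81.4% of the span) had 38.7, 42.5 and 44.5 TPM in K4A libraries and 1.52, 3.41 and 1.26 TPM in HTR5 libraries, and 5.2, 3.84 and 7.66 TPM in sdg2-labelled libraries and 1.27, 2.38 and 1.92 TPM in Col libraries. Its K4A libraries were above all others, and its sdg2-labelled libraries were above both controls, with a difference of 2.69 ± 0.34 (SE, 95% interval 1.97 to 3.42, adjusted p = 1.85e-05). The output genes were mixed. VSP2, a vegetative storage protein, rose in both with a difference of 0.32 (0.50 with limma-voom), but VSP1 fell in K4A (-0.29) and rose in sdg2-labelled libraries (0.89; difference -1.18). The thionin THI2.1 and the defensin PDF1.2 fell in both mutants and by less in K4A (differences 1.16 and 0.59). PDF1.2 was also lower in HTR5 than in Col by -3.42 on the log2 scale. MYC2, the main transcription factor of the pathway, is listed at 0 in all 12 libraries.

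**Figure D3:**
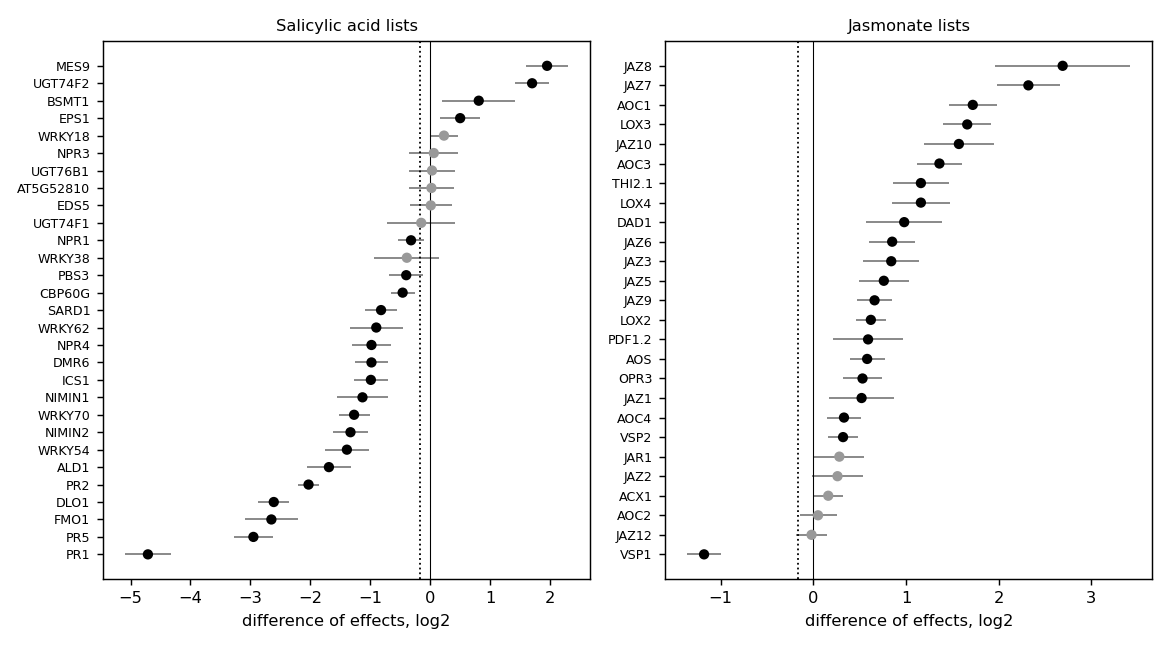
Difference of effects (log2, horizontal axis) of each tested gene of the salicylic acid lists (left) and the jasmonate lists (right); points are estimates, lines 95% intervals, black points are called and grey ones are not, and the dotted line is the median of all tested genes, -0.16. PR1 is lowest at -4.71 and MES9 highest at 1.95 on the left, and on the right 20 of 26 genes are called above 0 and VSP1 alone is called below it.

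Within the circadian clock, morning and evening genes had opposite differences. Morning genes fell by more in the sdg2-labelled libraries (median K4A effect -0.39, median sdg2-labelled effect -1.98), with 8 positive and 1 negative difference called among 11. Evening genes rose by more there (2.45 and 3.32), with 1 positive and 7 negative among 11. The hour of harvest is not given in the labels used here, and its part in these values was not tested. Because most genes of each group moved together and apart from the other group, the 250 bases upstream of 4 evening and 2 morning genes are printed. Each of these windows holds the motif marked in it. They are from the RefSeq annotation of TAIR10.1, written 5′ to 3′ on the gene's strand. Capitals mark the evening element AAAATATCT, or its reverse complement, in PRR5 (chr5:8358547-8358796 on the reverse strand), FKF1 (chr1:25508389-25508638 on the forward strand), TOC1 (chr5:24674713-24674962 on the forward strand) and LUX (chr3:17182792-17183041 on the forward strand). In CCA1 (chr2:19245341-19245590 on the forward strand) and LHY (chr1:37872-38121 on the reverse strand) they mark the G-box CACGTG.
PRR5: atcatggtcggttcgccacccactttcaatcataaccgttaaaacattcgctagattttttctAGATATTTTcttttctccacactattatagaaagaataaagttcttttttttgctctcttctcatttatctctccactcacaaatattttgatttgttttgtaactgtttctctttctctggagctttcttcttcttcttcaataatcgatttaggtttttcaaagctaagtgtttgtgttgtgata
FKF1: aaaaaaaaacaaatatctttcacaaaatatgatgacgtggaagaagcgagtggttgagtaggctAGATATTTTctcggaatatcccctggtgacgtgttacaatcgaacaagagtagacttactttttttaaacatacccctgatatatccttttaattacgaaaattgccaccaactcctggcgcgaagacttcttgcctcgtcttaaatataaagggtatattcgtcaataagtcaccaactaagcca
TOC1: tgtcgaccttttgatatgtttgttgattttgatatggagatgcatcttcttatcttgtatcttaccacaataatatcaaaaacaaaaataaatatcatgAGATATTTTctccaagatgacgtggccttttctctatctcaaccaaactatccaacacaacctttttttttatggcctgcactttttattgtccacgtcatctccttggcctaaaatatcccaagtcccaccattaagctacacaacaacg
LUX: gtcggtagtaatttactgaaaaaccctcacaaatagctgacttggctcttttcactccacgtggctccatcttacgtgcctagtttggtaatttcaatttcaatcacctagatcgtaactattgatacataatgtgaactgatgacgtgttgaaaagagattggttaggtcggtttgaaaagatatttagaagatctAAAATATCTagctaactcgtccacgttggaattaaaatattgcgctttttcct
CCA1: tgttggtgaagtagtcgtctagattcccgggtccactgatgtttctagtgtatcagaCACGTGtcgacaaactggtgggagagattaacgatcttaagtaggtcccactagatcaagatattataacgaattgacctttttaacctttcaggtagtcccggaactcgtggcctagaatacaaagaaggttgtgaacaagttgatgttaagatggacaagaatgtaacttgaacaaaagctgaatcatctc
LHY: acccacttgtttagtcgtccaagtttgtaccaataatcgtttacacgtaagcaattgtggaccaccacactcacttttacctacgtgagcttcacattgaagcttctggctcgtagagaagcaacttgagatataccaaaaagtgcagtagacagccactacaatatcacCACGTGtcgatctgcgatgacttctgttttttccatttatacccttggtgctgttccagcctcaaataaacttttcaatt
The evening element, searched on both strands, was in 5 of 11 evening clock windows (45.5%), 0 of 11 morning windows and 530 of 20767 windows of tested genes (2.55%). Its share in other lists reached 28.6%, in 2 of 7 windows of the FLC clade and SVP list, so it was not limited to evening genes. CACGTG was in 6 of 11 morning windows (54.5%), 2 of 11 evening windows and 7.28% of all windows. Among the other lists its share reached 45.5%, in 5 of 11 windows of chaperones of the endoplasmic reticulum, so it was not limited to morning genes. A match is a run of letters and not a shown binding site.

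Among the morning genes, the Myb repressors LHY and CCA1 had the largest differences. LHY (AT1G01060, chromosome 1, 33365 to 37871, reverse strand, exons over 75.9% of the span) had 50.8, 51.9 and 47.2 TPM in K4A libraries and 59.3, 77.9 and 61 TPM in HTR5 libraries, and 4.93, 3.87 and 5.12 TPM in sdg2-labelled libraries and 63.7, 65.7 and 61.3 TPM in Col libraries. Its sdg2-labelled libraries were far below all others, and K4A was below both controls. The difference was 3.14 ± 0.15 (SE, 95% interval 2.82 to 3.46, adjusted p = 7.81e-10), and the mutant term alone, K4A minus sdg2, was 3.18 beside a control term of 0.04. CCA1 averaged 92.3 TPM in K4A and 150 TPM in HTR5, and 14.1 TPM in sdg2-labelled and 132 TPM in Col libraries, with a difference of 2.44. The related RVE genes followed: RVE1 fell in sdg2-labelled libraries (-2.30) with a K4A effect of 0.02, not called, and a difference of 2.32; RVE8 had 1.58 and RVE4 0.92. The coactivators LNK3 and LNK2 had 1.82 and 1.42, while LNK1 (0.26) was not called. The repressor PRR9, expressed early in the day, had 0.51, and PRR7, which peaks later, was the negative exception at -0.68.

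In the evening group, the pseudo-response regulator PRR5 (AT5G24470, chromosome 5, 8356204 to 8358546, reverse strand, exons over 71.6% of the span) had 56.3, 51.6 and 52 TPM in K4A libraries and 1.92, 2.45 and 2.26 TPM in HTR5 libraries, and 123, 127 and 129 TPM in sdg2-labelled libraries and 1.74, 1.01 and 1.01 TPM in Col libraries. Both mutants were far above their controls, the sdg2-labelled libraries were the higher, and the difference was -1.75 ± 0.17 (SE, 95% interval -2.11 to -1.40, adjusted p = 1e-06). PRR3, of the same family, had -1.67, and TOC1, the member that peaks last, -0.62. FKF1, a blue-light photoreceptor of the photoperiod pathway, averaged 29.5 TPM in K4A and 0.393 TPM in HTR5, and 84.2 TPM in sdg2-labelled and 0.254 TPM in Col libraries, with a difference of -1.64. Its partner GI had -1.31, and ZTL, the related photoreceptor, was the 1 positive call at 0.29 (0.47 with limma-voom). In the evening complex, which represses growth and morning genes at night, ELF3 had -1.20 and LUX -0.91, while ELF4 rose in both (4.21 and 4.47) with a difference of -0.26, not called.

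**Figure D4:**
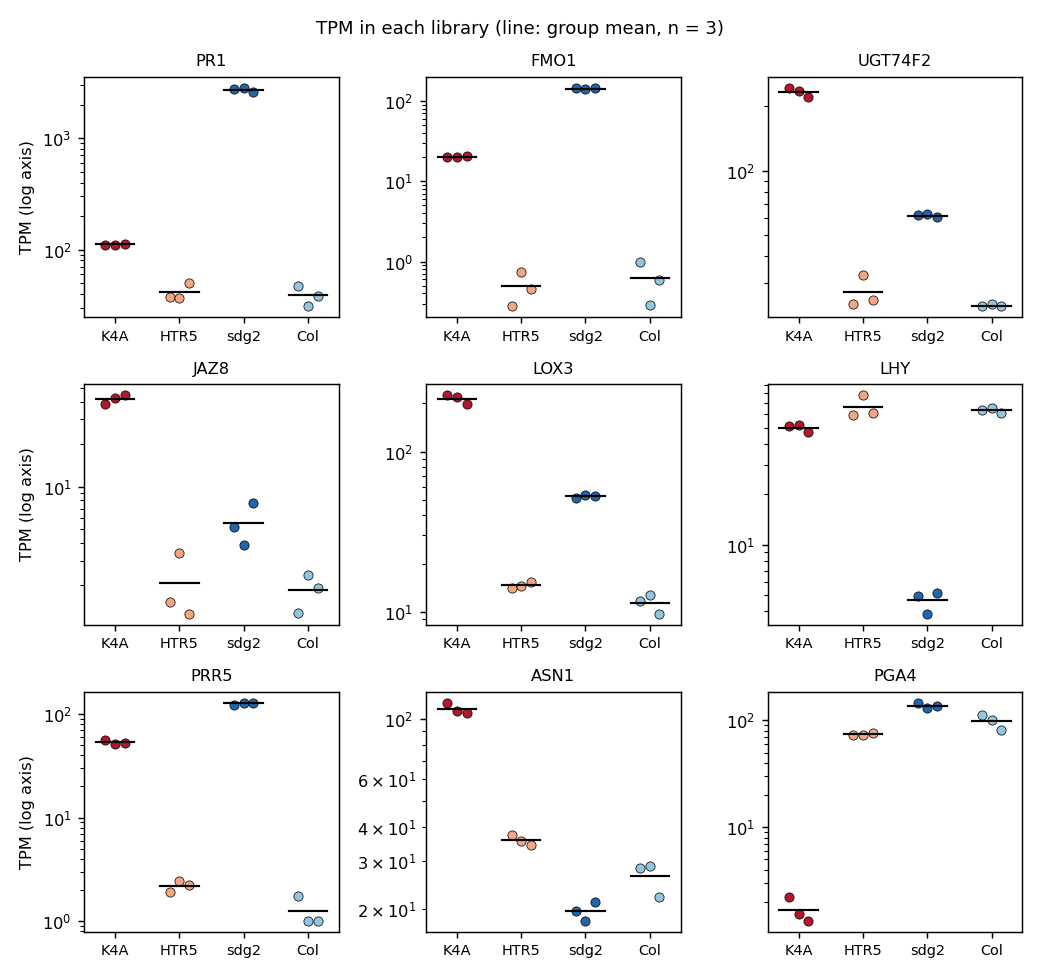
TPM (log axis) of 9 genes in each library, by group (K4A, HTR5, sdg2-labelled, Col); points are libraries and lines are group means (n = 3). The sdg2-labelled libraries are highest for PR1, FMO1 and PRR5 and lowest for LHY, K4A libraries are highest for UGT74F2, JAZ8, LOX3 and ASN1, and PGA4 is low in K4A alone, at a mean of 1.7 TPM.

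Starch genes under daily control differed in the same direction as the evening clock, with 3 positive and 9 negative differences called among 14. The negative ones were genes of night-time breakdown. ISA3, the debranching enzyme (AT4G09020, chromosome 4, 5783909 to 5789100, forward strand, exons over 52.9% of the span), had 43.5, 43.3 and 40.9 TPM in K4A libraries and 15, 19.3 and 16.3 TPM in HTR5 libraries, and 130, 124 and 133 TPM in sdg2-labelled libraries and 15.7, 15.6 and 14.6 TPM in Col libraries, with both mutants above their controls and a difference of -1.70 ± 0.12 (SE, 95% interval -1.95 to -1.45, adjusted p = 3.44e-08). The glucan dikinases PWD and SEX1 had -1.40 and -0.83, the phosphorylases PHS2 and PHS1 -1.26 and -0.85, the phosphatase SEX4 -0.75, and the glucanotransferases DPE1 and DPE2 -0.83 and -0.80. The beta-amylases went the other way, with BAM1 at 1.08 and BAM3 at 0.26 (0.44 with limma-voom), although BAM3 was not called without K4A replicate 2, HTR5 replicate 1, sdg2 replicate 3 or Col replicate 1 (0.21 to 0.25). So did GBSS1, the granule-bound synthase, with a K4A effect of -0.21, an sdg2-labelled effect of -1.33 and a difference of 1.12.

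Of the photoperiod genes, CDF2 and CDF3, repressors of flowering that are cleared by FKF1, had differences of 1.39 and 0.52. CDF1 fell alike (-1.71 in K4A and -1.74 in sdg2-labelled libraries; difference 0.03, 95% interval -0.23 to 0.29). The florigen FT fell in both and by less in K4A (difference 1.02), and TSF, its close relative, had -1.37 (-2.35 with limma-voom). SOC1, a floral integrator, fell in K4A (-0.68) with a difference of -0.84, but HTR5 was also above Col, by 0.59 on the log2 scale. The shade and growth factors PIF5, PIF7 and PIF1 had 1.09, 0.85 and 0.76, and 7 of 9 genes of their list were called positive and 0 negative. In the cold list 9 of 15 genes were not called, and the called share was near the 40.7% of all tested genes. COR15B, a chloroplast cryoprotectant, averaged 12.7 TPM in K4A and 11 TPM in HTR5, and 75.5 TPM in sdg2-labelled and 10.3 TPM in Col libraries (difference -2.56), while its neighbour COR15A had 0.23 and was not called.

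Genes of low carbon supply rose in K4A and were mixed in the sdg2-labelled libraries. In the sugar starvation list 8 of 11 differences were positive and called and 0 negative (median K4A effect 1.17, median sdg2-labelled effect 0.53). The sdg2-labelled effect was called higher in 6 genes and lower in 3. Under the 3 other scalings it was higher in 5 to 6 and lower in 5 (medians 0.15 to 0.20). ASN1, a glutamine-dependent asparagine synthetase induced by darkness (AT3G47340, chromosome 3, 17437840 to 17441431, reverse strand, exons over 76.4% of the span), had 115, 107 and 105 TPM in K4A libraries and 37.4, 35.7 and 34.4 TPM in HTR5 libraries, and 19.7, 18.1 and 21.2 TPM in sdg2-labelled libraries and 28.3, 28.8 and 22.2 TPM in Col libraries. It was highest in K4A and lowest in the sdg2-labelled libraries, which lay below Col, with a difference of 1.98 ± 0.13 (SE, 95% interval 1.70 to 2.26, adjusted p = 2.58e-08). The class II trehalose phosphate synthases TPS8 and TPS9 rose in K4A (1.05 and 1.17) with sdg2-labelled effects of -0.11 and 0.02, not called as deposited but lower and called under the 3 other scalings (-0.46 to -0.31). SEN1 and the F-box gene KMD4 rose in K4A, SEN1 as deposited but under none of the 3 other scalings, and both fell in sdg2-labelled libraries (differences 0.86 and 0.90). BGLU30, a dark-inducible glucosidase, averaged 123 TPM in K4A and 0.545 TPM in HTR5, and 103 TPM in sdg2-labelled and 6.76 TPM in Col libraries. Its difference of 2.58 (4.04 with limma-voom) rests mainly on the controls, since HTR5 was below Col by -2.32 while K4A minus sdg2 was 0.26.

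All 8 nitrate genes had a called difference, 6 positive and 2 negative. The high-affinity transporter NRT2.1 (AT1G08090, chromosome 1, 2524023 to 2526322, forward strand, exons over 91.8% of the span) had 7.97, 6.37 and 6.11 TPM in K4A libraries and 0.196, 0.293 and 0.407 TPM in HTR5 libraries, and 0.469, 0.31 and 0.291 TPM in sdg2-labelled libraries and 1.09, 0.615 and 0.619 TPM in Col libraries. All K4A libraries were above 6 TPM and all others near or under 1 TPM, and the difference was 2.96 ± 0.22 (SE, 95% interval 2.50 to 3.43, adjusted p = 7.22e-08), or 5.06 with a pseudocount of 0.1 and 5.62 with limma-voom. The nitrate reductases NIA1 and NIA2 had 1.38 and 1.12, the nitrite reductase NIR1 1.23, the plastid glutamine synthetase GLN2 0.68 and the glutamate synthase GLT1 0.47. The transporter and nitrate sensor NRT1.1 fell in K4A (-0.49) and rose in sdg2-labelled libraries as deposited (0.33), where its effect was -0.04 to -0.01 and not called under the 3 other scalings. The ammonium transporter AMT1;1 rose in both, by 2.58 in K4A and 3.07 in sdg2-labelled libraries, and its difference of -0.50 lost its call with median-of-ratios scaling (adjusted p = 0.273) and limma-voom (0.177). In the phosphate list 6 of 9 differences were positive and 1 negative: the phosphate transporter PHT1;4 had 1.65, the sensors SPX3 and SPX1 1.39 and 1.18, and the carboxylase kinase PPCK1 -0.90.

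Iron genes divided by role. The bHLH factors induced by iron shortage were low in sdg2-labelled libraries: bHLH38 (AT3G56970, chromosome 3, 21084035 to 21085245, reverse strand, exons over 89.3% of the span) had 3.96, 5.5 and 5.24 TPM in K4A libraries and 4.83, 7.24 and 5.02 TPM in HTR5 libraries, and 0.137, 0 and 0.276 TPM in sdg2-labelled libraries and 10.2, 9.48 and 12.4 TPM in Col libraries. Its sdg2-labelled libraries were at or under the floor of 3 reads, at least 41.4-fold lower than Col, and its K4A effect of -0.17 was not called. The differences were 3.19 for bHLH38, 2.81 for bHLH39, 2.53 for bHLH100 and 1.53 for bHLH101, and with limma-voom 6.19 for bHLH38, 4.66 for bHLH39 and 2.54 for bHLH101. These genes were also lower in HTR5 than in Col, by -0.82, -0.95, -0.48 and -0.66. FRU, the factor that pairs with them to activate uptake in roots, rose in sdg2-labelled libraries (1.59) with a difference of -1.27. The phloem iron transporter OPT3 rose in K4A and fell in sdg2-labelled libraries (difference 1.25). Of the ferritins, which store iron, FER3 and FER4 had -0.87 and -0.42 (FER4 not called with limma-voom) and FER1 -0.06, not called. The uptake genes IRT1 and FRO2 had -0.28 and 0.03 and were not called. The list counted 9 positive and 3 negative calls among 18.

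Flavonoid genes fell in the sdg2-labelled libraries more than in K4A, with 12 positive and 2 negative differences called among 16 (median K4A effect -0.04, median sdg2-labelled effect -0.69). CHS, the chalcone synthase, averaged 512 TPM in K4A and 345 TPM in HTR5, and 279 TPM in sdg2-labelled and 383 TPM in Col libraries, with a difference of 1.03 and a control term of -0.16. Several late anthocyanin genes also differed between the controls. LDOX, the anthocyanidin synthase (AT4G22880, chromosome 4, 12004726 to 12006209, reverse strand, exons over 94.3% of the span), had 26.7, 21.4 and 22 TPM in K4A libraries and 21.8, 26.2 and 24.5 TPM in HTR5 libraries, and 8.44, 8.09 and 9.4 TPM in sdg2-labelled libraries and 63.8, 54.8 and 58.8 TPM in Col libraries. Its sdg2-labelled libraries were lowest, Col was highest, and K4A and HTR5 lay between. The difference of 2.59 ± 0.14 (SE, 95% interval 2.28 to 2.89, adjusted p = 3.64e-09) was made of a mutant term of 1.33 and a control term of -1.26. DFR, the reductase before it, GSTF12, a carrier of anthocyanin to the vacuole, and the glycosyltransferase UF3GT had differences of 2.12, 2.21 and 1.86 with control terms of -1.44, -1.11 and -1.12. The Myb activators were opposed: PAP1 fell in both and by less in K4A (difference 1.13), while PAP2 had -1.33 at 2.13 TPM in K4A, 2.44 in HTR5, 5.59 in sdg2-labelled and 1.9 TPM in Col libraries. The repressor MYBL2 had 1.32.

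**Figure D5:**
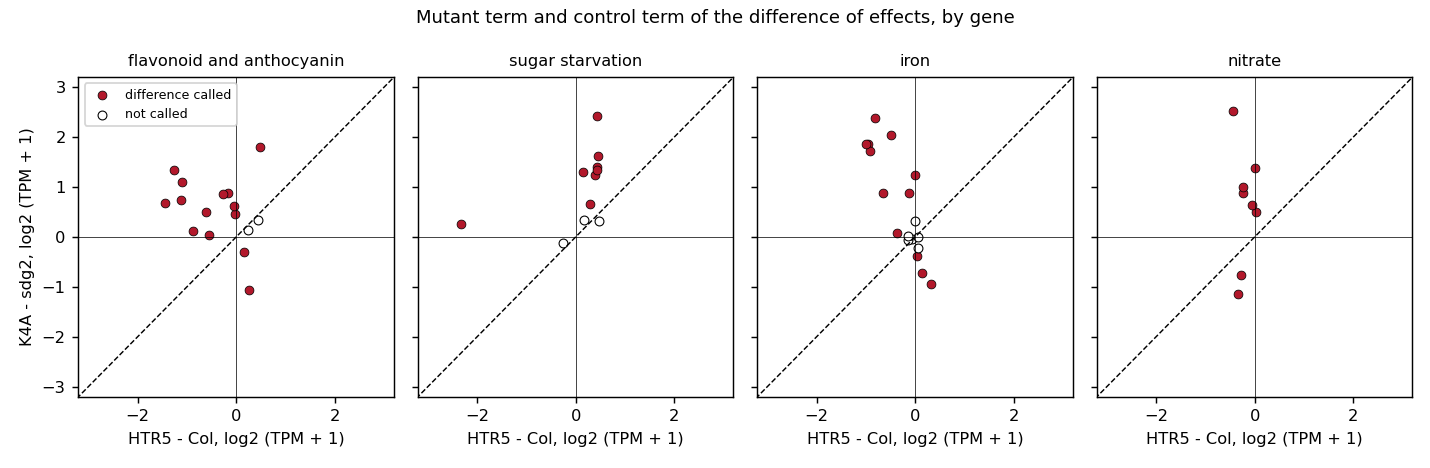
The mutant term, K4A minus sdg2-labelled (vertical axis), against the control term, HTR5 minus Col (horizontal axis), in log2(TPM + 1) for each tested gene of 4 lists; filled points have a called difference of effects, and the dashed line marks no difference. In the flavonoid and iron lists many called genes lie left of 0, where HTR5 is below Col, and in the sugar starvation and nitrate lists the points spread mainly along the vertical axis, except BGLU30 at a control term of -2.32.

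Some cell wall genes rose far more in K4A, although the list as a whole did not rise. Xyloglucan endotransglucosylases cut and rejoin wall xyloglucan, and with expansins they counted 6 positive and 3 negative calls among 12. The median effects were -0.25 for K4A, with 4 genes higher and 5 lower, and -0.63 for sdg2-labelled, with 2 higher and 8 lower. XTH18 (AT4G30280, chromosome 4, 14825757 to 14827211, reverse strand, exons over 86.8% of the span) had 46.9, 49.2 and 51.3 TPM in K4A libraries and 1.86, 3.24 and 2.68 TPM in HTR5 libraries, and 2.79, 2.12 and 2.38 TPM in sdg2-labelled libraries and 2.91, 5.19 and 4.02 TPM in Col libraries, with K4A above all others and a difference of 4.35 ± 0.24 (SE, 95% interval 3.84 to 4.86, adjusted p = 3.46e-09). XTR6 (also called XTH23) averaged 108 TPM in K4A and 2.7 TPM in HTR5, and 7.49 TPM in sdg2-labelled and 1.71 TPM in Col libraries (difference 3.23) and XTH19 had 2.28. XTH18 and XTH19 are neighbours on chromosome 4 and similar in sequence, and reads shared between them could have been split. TCH4 rose in both (2.27 and 2.06; difference 0.21, not called as deposited), and EXPA8 had -0.90. In the heat shock list 7 of 14 differences were positive and 0 negative (median effects 1.56 for K4A and 0.43 for sdg2-labelled). The sdg2-labelled effect was called higher in 8 genes and lower in 1, but in 6 and 3 under the 3 other scalings (medians 0.11 to 0.13). The cytosolic chaperone HSP70 rose in K4A (1.57) and fell in sdg2-labelled libraries (-0.63), with a called difference to which the control term, also called, added. HSFA2, the heat factor that sustains the response, had 1.07 and the small chaperone HSP17.4 1.91. HSP90.1 (0.35) and DREB2A (0.09) rose in both and their differences were not called as deposited, though that of HSP90.1 was under the 3 other scalings (0.43 to 0.53).

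As deposited, most nuclear photosynthesis genes fell in both mutants, and about 1 in 2 of those listed fell further in the sdg2-labelled libraries. The antenna list, whose proteins bind chlorophyll around the photosystems, had median effects of -1.03 for K4A and -1.44 for sdg2-labelled, with 11 of 21 differences positive and called and 0 negative. The photosystem and electron transport list had 14 of 27 positive and 0 negative (1 negative at an unadjusted p), and the Rubisco and Calvin cycle list 8 of 15 positive and 1 negative. Since HTR5 replicate 2 was low in these genes, the counts without it were 12 positive and 2 negative for the antenna, 18 and 1 for the photosystems, and 7 and 2 for the Calvin cycle. The sizes shrank without it: the median difference less that of all genes was 0.399, 0.355 and 0.314, against 0.57, 0.51 and 0.47 with it. These results were also weaker with quantile normalization: the median difference less that of all genes was 0.23 for the antenna, against 0.57 as deposited, 0.25 for the photosystems, against 0.51, and 0.11 for the Calvin cycle, against 0.47, with 10 positive, 10 positive, and 6 positive and 3 negative calls. The K4A effect was then called lower in 12 of 21, 19 of 27 and 7 of 15 genes, against 20, 26 and 13 as deposited. It was called higher in 2, 3 and 2 genes, against 0, 0 and 1 as deposited. Its medians were -0.29, -0.55 and -0.13, against -1.03, -0.97 and -0.69. The K4A effect of RCA was 0.11 and not called, against -0.92 as deposited. LHCB2.1, an antenna protein of photosystem II (AT2G05100, chromosome 2, 1822990 to 1824480, reverse strand, exons over 94.3% of the span), had 2215, 2153 and 2231 TPM in K4A libraries and 4890, 3492 and 5019 TPM in HTR5 libraries, and 1112, 1291 and 1177 TPM in sdg2-labelled libraries and 4924, 4949 and 4958 TPM in Col libraries. All libraries of each mutant were below all libraries of its control, and the sdg2-labelled ones were lowest, with a difference of 1.05 ± 0.15 (SE, 95% interval 0.73 to 1.37, adjusted p = 6.59e-05). LHCB1.2 and LHCB2.3 had 1.06 and 1.02, and reads of these near-identical copies could have been split. PSAK, a photosystem I subunit, had 1.23 and RCA, the Rubisco activase, 1.17. The differences of these single genes include HTR5 replicate 2. Of the chlorophyll synthesis genes, HEMA1, the first committed enzyme of the pathway, had 0.70, while the protochlorophyllide reductase PORB and the vinyl reductase PCB2 had -1.04 and -1.19.

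Pollen genes gave the widest gap of the 42 lists. Of 20 tested genes, 19 had a negative difference called and 0 a positive one, and the K4A effect was lower and called in 19 while the sdg2-labelled effect was higher and called in 13 and lower in 2. The rise in sdg2-labelled libraries was called in 8 genes with median-of-ratios scaling, 9 with quantile normalization and 10 with limma-voom. The median effects were -2.53 for K4A and 0.59 for sdg2-labelled. Summed over the 23 listed genes, TPM was 31.3, 27.4 and 24.5 in K4A libraries and 441, 379 and 451 in HTR5 libraries, and 777, 715 and 802 in sdg2-labelled libraries and 639, 559 and 482 in Col libraries. K4A was below every other library. In whole seedlings, fewer cells of a type and less RNA per cell cannot be told apart. PGA4, a pectin-degrading polygalacturonase (AT1G02790, chromosome 1, 610363 to 612324, reverse strand, exons over 85.9% of the span), had 2.22, 1.54 and 1.33 TPM in K4A libraries and 73.1, 72.4 and 76.2 TPM in HTR5 libraries, and 147, 130 and 136 TPM in sdg2-labelled libraries and 113, 101 and 80.6 TPM in Col libraries, with a difference of -5.30 ± 0.17 (SE, 95% interval -5.67 to -4.94, adjusted p = 1.63e-11). VGD1, a pectin methylesterase needed for pollen tube growth, averaged 1.85 TPM in K4A and 65.2 TPM in HTR5, and 130 TPM in sdg2-labelled and 85 TPM in Col libraries. The arabinogalactan proteins AGP6 and AGP11 had -4.26 and -4.08. AGP23 was at or under 3 reads in every K4A library, at least 72.3-fold lower than in HTR5, and it also fell in sdg2-labelled libraries (-2.12). Of the pollen tube signalling genes, the receptor kinase ANX2 had -2.76 (-5.80 with limma-voom) and ANX1 -0.73. The peptide genes RALFL4 and RALFL19 were at or under the floor in K4A, at least 27.2-fold lower and at least 26.7-fold lower than in HTR5.

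Floral genes were lower in K4A, but unlike pollen genes they were not higher in most cases in sdg2-labelled libraries (4 higher and 5 lower of 11). Over the 11 floral identity genes, summed TPM was 151, 151 and 154 in K4A libraries and 204, 265 and 199 in HTR5 libraries, and 185, 174 and 174 in sdg2-labelled libraries and 183, 179 and 178 in Col libraries. Of these genes 5 had a negative difference and 0 a positive one (1 with limma-voom), and FUL, a regulator of inflorescence and fruit, had the lowest, -1.46. The K4A effect of FUL was -0.16 and not called as deposited (-0.34 to -0.31 and called under the 3 other scalings). Its difference thus came mostly from a rise in sdg2-labelled libraries. The median control term of the list, 0.29, was larger than its median mutant term, -0.18, so the differences draw on the controls too. The floral sum was highest in HTR5 replicate 2, and the control terms in this paragraph include that library. Without it the median K4A effect of the list was -0.42, against -0.51, with 5 negative and 0 positive differences. The labels give seedlings, and transcripts of flowers and pollen were present in all groups but low for pollen in K4A. Their part in the pollen result was not tested. Mitosis genes had 6 negative and 0 positive calls among 11, against 26.6% and 14.1% of all genes, with a median K4A effect of -0.52 and sdg2-labelled effect of 0.18 (-0.15 to -0.13 under the 3 other scalings). Their median control term was 0.31 and their median mutant term -0.33. Without HTR5 replicate 2 their median K4A effect was -0.38, with 6 negative and 0 positive differences. CDKB1;1, a kinase of entry into mitosis, averaged 5.34 TPM in K4A and 10.5 TPM in HTR5, and 9.52 TPM in sdg2-labelled and 8.28 TPM in Col libraries (difference -1.04). DNA replication genes had 5 negative and 0 positive calls among 9, but 2 negative with median-of-ratios scaling or quantile normalization and 3 with limma-voom, and the median difference rested on the controls (control term 0.33, mutant term -0.08). Their median K4A effect was -0.34, and -0.26 without HTR5 replicate 2, with 5 negative and 0 positive differences in that fit. The helicase subunit MCM2 had -0.62.

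By size alone, 10 genes in each direction were taken among 3993 called genes whose highest group mean was at least 5 TPM, whose direction held without any 1 library and whose control term was under 0.25 of the difference in size. The rule on direction removed no gene, since it held for all 8499 called differences. The 10 lowest differences, -5.37 to -4.85, were AT3G01270 (a pectate lyase), PGA4, AT3G01240, sks13, VGD1, AT3G26110 (annotated as anther-specific), AT5G50030, AT4G02250, AT3G07820 and AT5G39880. In all 10, K4A fell and the sdg2-labelled libraries rose (in 6 with median-of-ratios scaling and 9 with quantile normalization or limma-voom), and K4A means ran from 0.14 to 2.9 TPM. The highest was CYP94B3, a cytochrome P450 that inactivates jasmonoyl-isoleucine (AT3G48520, chromosome 3, 17974853 to 17976774, reverse strand, exons over 100% of the span). It had 93.6, 93.6 and 91.7 TPM in K4A libraries and 0.703, 0.702 and 0.487 TPM in HTR5 libraries, and 2.76, 3.71 and 3.31 TPM in sdg2-labelled libraries and 0.978, 1.55 and 0 TPM in Col libraries, with K4A above all others and a difference of 4.55 ± 0.34 (SE, 95% interval 3.82 to 5.27, adjusted p = 7.98e-08). XTH18 was next, followed by AT3G23970, an F-box gene that was at least 16.6-fold higher in K4A than in HTR5, where no read was found. The others were AT5G23115 (3.54), DDF1, an activator of gibberellin catabolism (3.54), the thioredoxin TH8 (3.51), RAP2.6, a stress-induced ethylene-response factor (3.48), SKS2 (3.45), ABCF2 (3.37) and AT2G43960 (3.32). With limma-voom the differences were 8.22 for ABCF2, 5.49 for TH8 and 5.37 for AT2G43960.

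Families were taken from shared RefSeq symbols or descriptions, and 353 had at least 10 tested genes. The lowest medians of the difference were those of the proline-rich extensin-like receptor kinases, PERK (-0.82, with 1 positive and 7 negative calls among 11), and of kinases with an adenine nucleotide alpha hydrolase-like domain (-0.73, 0 and 7 among 12). Nucleotide-diphospho-sugar transferases (-0.56, 0 and 6 among 11), CC-NBS-LRR disease resistance proteins (-0.56, 2 and 11 among 22) and E1-E2 ATPases (-0.54, 2 and 5 among 10) followed. In the CC-NBS-LRR family 18 of 22 genes were called higher in sdg2-labelled libraries, against 52.4% of all tested genes, and 8 in K4A, against 42.5%. The highest medians were those of mannose-binding lectins (1.09, 7 and 2 among 10), defensin-like proteins (1.01, 7 and 1 among 13) and proteins with the domain DUF295 (0.83, 6 and 0 among 10). MAPKKK kinases (0.81, 8 and 3 among 13) and PDF defensins (0.42, 5 and 1 among 10) came next. In the defensin-like family the median HTR5 minus Col was -1.01, so its value draws on the controls too. Families were ranked on the values described, and their medians carry no test.

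Other defence lists had mixed differences. Most pattern-triggered immunity genes rose in both (median effects 2.23 for K4A and 1.98 for sdg2-labelled), with 6 positive and 7 negative calls among 16. The cell-surface receptors FLS2 (0.61), PEPR1 (0.93) and PEPR2 (0.83), the kinase BIK1 (0.69) and the oxidase RBOHD (0.51) were positive. PEPR1 had an sdg2-labelled effect of 0.10, not called as deposited but lower and called under the 3 other scalings (-0.28 to -0.24). The sdg2-labelled rise of PEPR2 (0.56) was not called with median-of-ratios scaling or quantile normalization. The chitin receptor CERK1 (-0.55) and the factors WRKY33 (-0.61) and WRKY53 (-1.31) were negative. In the EDS1 node, which relays signals of intracellular receptors, EDS1 (-0.28), PAD4 (0.10) and SAG101 (0.13) rose in both and their differences were not called as deposited. AT3G48080, the neighbour of EDS1 with a like sequence, fell in K4A (-0.82) and rose in sdg2-labelled libraries (3.15), with reads that could be shared between them. Camalexin and indolic glucosinolate genes had 2 positive and 6 negative calls among 12, and the sign of their median less that of all genes turned with a pseudocount of 0.1 and with limma-voom. MYB51, a regulator of indolic glucosinolates, had -0.97 and CYP79B2, which makes their precursor, -0.69. Aliphatic glucosinolate genes fell in both (median effects -1.59 for K4A and -1.63 for sdg2-labelled). Their Myb regulators were opposed, with MYB28 at -0.62 and MYB29 at 0.97, and the chain-elongating MAM3 was nearly absent in K4A, at 0.306 TPM in K4A and 23.5 TPM in HTR5, and 7.8 TPM in sdg2-labelled and 26.3 TPM in Col libraries (difference -2.59, or -4.15 with a pseudocount of 0.1 and -4.33 with limma-voom).

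Several lists rose in both mutants. Leaf senescence genes were called higher in all 11 cases in both mutants (median effects 1.77 for K4A and 1.73 for sdg2-labelled), with 3 positive and 1 negative difference. All 12 ethylene genes were called higher in both as deposited, against 42.5% of all tested genes in K4A and 52.4% in sdg2-labelled libraries. They had 0 positive and 3 negative differences (3 and 1 with limma-voom, and 1 positive at an unadjusted p). The negative share was near the 26.6% of all tested genes. Chaperones of the endoplasmic reticulum rose in all 11 cases in both, with 0 positive and 6 negative differences (0 and 2 with limma-voom, and 0 of either sign with median-of-ratios scaling). Of 7 tested genes for methyltransferases of lysine 4, 3 had a called difference, near the 40.7% of all tested genes: SDG2 and, of the other 6 genes, ATX2 (-0.69) and ATXR7 (-0.75). Of 8 tested demethylase genes 0 had one with limma, 3 at an unadjusted p under 0.05 and 1 with limma-voom.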

How the data were processed

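RNA of Arabidopsis seedlings was sequenced in 12 libraries, 3 per group, with groups read from the titles. TPM values for 27655 genes were deposited by the authors in 1 table. The submitters' processing notes name fastp 0.20.1, HISAT2, DESeq2 1.26.0 and the build TAIR10. The counting tool and its use of strand are not given in the sources used here, so a gene and an overlapping antisense gene cannot be told apart. TPM multiplied by gene span (TAIR10.1 RefSeq annotation, 210 genes unmatched) gave whole reads within 0.05 for 99.98% of non-zero values of up to 10000 reads, and these recovered reads give the library depths and the floor of 3 reads per library. Both cover counting error alone.

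The main test was limma 3.58.1 (R 4.3.3, mean-variance trend, 1 mean per group) on log2(TPM + 1), with 1 fit of all libraries over the 20881 genes that passed the filter. Benjamini-Hochberg adjustment ran over all of them. Fold changes of low genes are understated on this scale. The script was tested on simulated data with equal group means except for genes changed in K4A alone. That setting is simpler than these data, so it checks the code and not the calls given here. The comparison, the 42 lists and the promoters shown were chosen with earlier results of these data known. Of 527 listed genes, 495 had a RefSeq symbol, 526 were in the table and 506 passed the filter. Genes outside the lists were named by size under the rule stated with them, and families by the 5 highest and 5 lowest medians. Alternatives covered the pseudocount (0.1, 0.5), the filter (none, or a mean of 5 TPM or more), the scaling (median of ratios, quantiles, limma-voom on recovered reads), a term for replicate number, and leaving out each library.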

Additional observations from a re-analysis of the deposited data

How the results depend on the processing

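The number of genes whose effects differed was 8499, and lay between 7066 (without sdg2 replicate 3) and 9306 (without HTR5 replicate 1) when 1 library was left out. Differences of at least 2-fold numbered 2312, with a range of 2285 to 2424, calls of K4A against HTR5 14319, with a range of 13272 to 15177, and calls of sdg2-labelled against Col 15278, with a range of 14296 to 16177. A filter at a mean TPM of 5 tested 16593 genes and left 1361 differences of at least 2-fold. Other settings kept these counts within 1.5 times. Of the 8499 calls, 76.5% were also called in the same direction with median-of-ratios scaling, 83.1% with quantile normalization and 76.5% with limma-voom. Replicate numbers did not pair the libraries: over 18 pairs of the same number in different groups, the correlation of deviations ran from -0.136 to 0.0703. With the replicate number as a block, 7986 differences were called, 2311 of them of at least 2-fold. Under all alternatives, 38 of the 42 list medians less that of all genes kept their sign; the others were the FLC clade, camalexin, ethylene and pattern-triggered immunity lists. Named genes with a called difference numbered 174, and those without one are not counted here. For all 8499 called differences direction held in each fit without 1 library, so those fits could show no reversal. Of 3466 values of these 174 genes under the alternatives, 3432 kept direction and call, 34 lost the call and 0 reversed. Those that lost it were values of BSMT1 (9), NPR1 (7), PBS3 (6), BAM3 (4), EPS1 (3), AMT1;1 (2), WRKY62, FER4 and JAZ1, and the cause was not tested. Depth limits genes near the floor of 3 reads, whose folds are bounds.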
